A study of Homo sapiens with 2 samples.

Results

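The RUNX1 peaks described here are those whose summit, the base with the most tags in a peak, fell inside a long non-coding RNA gene and away from protein-coding genes. They numbered 1606 of the 13591 peaks in the list. A peak was taken when its summit lay inside a non-coding RNA gene of at least 1 kb in the RefSeq annotation, pseudogenes excluded, and was neither inside nor within 1 kb of a protein-coding gene, on chromosomes 1 to 22. By annotated type, 1601 had their summit in at least 1 lncRNA gene. The others lay in a gene of the miscellaneous RNA type (3) or an antisense RNA gene (2). For 1497 peaks the summit lay in a single such gene, and for 109 it lay in 2 or more overlapping ones.

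The cells were MCF10A, an established cell line from human breast epithelium that does not form tumours. They were RUNX1-deleted and had been transduced with lentivirus carrying an inducible RUNX1, and doxycycline was given at 1 µg/ml for 24 hours, so the RUNX1 that was precipitated came from the vector. ChIPseq was made of 1 sample with anti-RUNX1 antibody and 1 sample of input DNA, both from cells of this genotype and treatment. There was no uninduced sample and no replicate, so no value here has a replicate error, no test between samples could be made, and the intervals given cover counting error only.

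RUNX1 is the DNA-binding partner of CBFB, and the pair recognises the short element TGTGGT and, less often, TGCGGT. In blood and in mammary epithelium RUNX1 acts at promoters and at enhancers far from them. Long non-coding RNA genes are transcribed into RNAs with no protein product. Some of these RNAs act in the nucleus or cytoplasm, some are precursors of microRNAs, and many have no known role. A peak within such a gene is a place where RUNX1 was crosslinked to DNA, and says nothing of whether the gene was transcribed, since no RNA was measured in this experiment.

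A genome sequence was not used here, so the sequence under most of the peaks is not shown. Of the 1606 summits, 14 lay inside a promoter window of the RefSeq table, which runs from 250 bases before to 50 bases after a gene's start site. The following stretches reach at most 50 bases either side of the summit and stop at the edge of the window, with TGTGGT or TGCGGT in capitals, or ACCACA or ACCGCA where the element was read on the opposite strand. They are given on the strand of the gene that owns the window, with GRCh38.p14 positions. The first 6 are all those of the 14 stretches that held TGTGGT, and the last pair shows a stretch with TGCGGT alone and one with neither.
LINC02537, chr6:43852530-43852583, minus strand: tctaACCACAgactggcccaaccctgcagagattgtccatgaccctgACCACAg
LOC105376892, chr1:27522437-27522536, plus strand: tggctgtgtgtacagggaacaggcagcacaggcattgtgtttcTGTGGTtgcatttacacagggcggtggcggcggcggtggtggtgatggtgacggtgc
LOC105374382, chr2:28359455-28359555, plus strand: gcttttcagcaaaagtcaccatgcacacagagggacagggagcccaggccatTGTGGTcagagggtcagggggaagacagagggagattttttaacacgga
LOC105376233, chr9:115262618-115262718, minus strand: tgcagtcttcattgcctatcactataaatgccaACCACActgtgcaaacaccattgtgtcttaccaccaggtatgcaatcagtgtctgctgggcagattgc
LINC02955, chr12:23175425-23175525, plus strand: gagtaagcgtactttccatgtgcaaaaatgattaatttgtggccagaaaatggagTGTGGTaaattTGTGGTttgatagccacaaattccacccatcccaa
LOC102724734, chr20:19047844-19047944, plus strand: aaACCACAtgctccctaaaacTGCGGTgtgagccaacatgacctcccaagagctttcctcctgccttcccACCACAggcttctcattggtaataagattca
OIP5-AS1, chr15:41283956-41284039, plus strand: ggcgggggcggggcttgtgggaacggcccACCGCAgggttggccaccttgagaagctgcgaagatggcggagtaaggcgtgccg
LINC03033, chr14:61570381-61570481, plus strand: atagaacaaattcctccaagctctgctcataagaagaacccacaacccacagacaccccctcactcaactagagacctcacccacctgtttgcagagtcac

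The 6 stretches with TGTGGT belonged to the 6 of these 14 peaks with the highest fold enrichment. Fold enrichment is the ratio of the tags piled up over the summit to those of the local background, with 1 added to both. The LINC02537 window lay under a peak of LOC105375070 with 29 tags and a fold enrichment of 9.25, and held the element at both ends of the stretch. LOC105376892, LOC105374382 and the LOC105376233 window, which lies in DELEC1, each had 28 tags and a fold enrichment of 9.06. LINC02955 had 24 tags and 7.81, with 2 copies of the element, and LOC102724734 had 21 tags and 6.87, with 2 copies and a TGCGGT between them. OIP5-AS1, whose RNA binds the protein HuR in other cells, had 11 tags and 3.75 with the summit 16 bases after its start, and the LINC03033 window, in LINC01303, had 18 tags and 5.93.

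Over the whole window, TGTGGT on either strand was found for 9 of the 14 summits, 64.3% (95% Wilson interval 38.8 to 83.7). Of the 362 other summits of the list in a promoter window 132 held it, 36.5% (31.7 to 41.5), so the intervals overlapped. Over all 35116 windows of the table the share was 13.1% for TGTGGT, 7.29% for TGCGGT and 19.6% for either, and over the 12917 windows of lncRNA genes it was 16.2% for TGTGGT. A match is a string of letters and does not show which base RUNX1 touched.

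MicroRNAs are cut from longer transcripts, often non-coding ones, and pair with target messages through the seed, bases 2 to 8. Of 163 eligible non-coding genes that hold a microRNA, 31 had a peak, 19.02% against 9.27% of all eligible genes, and these held 40 microRNAs. By length, 22 of the 74 genes of at least 37.7 kb had a peak, against 23.5% of all genes of that class. Of the 89 shorter ones 9 did, against 5.71%. Lengths within each class were not matched. The mature sequences of 5 that are well known are given from RefSeq with the seed in capitals. They show that the pair made from MIR29B2CHG shares the seed AGCACCA, while the others each have their own.
hsa-miR-29b-3p: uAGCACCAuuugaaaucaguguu
hsa-miR-29c-3p: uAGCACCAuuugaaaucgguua
hsa-miR-9-5p: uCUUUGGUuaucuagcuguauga
hsa-miR-34a-5p: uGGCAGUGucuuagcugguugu
hsa-miR-148a-3p: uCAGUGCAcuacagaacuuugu

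The peak nearest to the microRNA was seldom in its immediate surroundings. Only 6 of the 40 microRNAs lay within 5 kb of a summit. MIR29B2CHG, the host of miR-29b-2 and miR-29c, which repress collagens and other matrix genes, had 2 peaks of 26 and 20 tags with fold enrichments of 6.65 and 5.38, the nearer 4.54 kb from MIR29B2. MIR148A, which lies in LOC105375199, was 1.62 kb from a summit with 16 tags and a fold enrichment of 3.64. MIR34AHG, the host of the p53 target miR-34a, had 1 peak of 17 tags and 4.79, 12.5 kb from the microRNA. MIR9-3HG, a host of the neural microRNA miR-9, had 4 peaks of 41, 28, 19 and 17 tags with fold enrichments of 11.9, 9.06, 5.32 and 5.62, the nearest 11.9 kb from the microRNA.

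Peaks in non-coding genes made up 11.8% of the list (95% Wilson interval 11.3 to 12.4), and they were of ordinary height. Their median fold enrichment was 5.13 (quartiles 4.32 and 6.56) against 5.06 for all peaks, 5.06 for the 6807 peaks in or within 1 kb of protein-coding genes and 5.01 for the 4908 other peaks of chromosomes 1 to 22. Pileups ranged from 10 to 82 tags and had a median of 18 (quartiles 15 and 23). The median and lower quartile were the same in each of those sets. The upper quartile was 22 for the peaks in or within 1 kb of protein-coding genes and 23 elsewhere. The width of peaks in non-coding genes ranged from 74 to 736 bp, with a median of 157 bp against 153 bp for the whole list.

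A fold enrichment of at least 5 was reached by 838 of them, 52.2% (49.7 to 54.6), against 50.6% of the whole list, so their share was near that of all peaks. A fold enrichment of at least 10 was reached by 83, 5.17% (4.19 to 6.36), against 3.82% of the whole list, 3.82% (3.39 to 4.30) of the peaks in or near protein-coding genes and 3.53% (3.04 to 4.08) of the other peaks. The interval for the non-coding genes lay above the whole list's share and overlapped the interval for the peaks of protein-coding genes. At a fold enrichment of at least 14 the order of these sets was not kept: 0.747% of the non-coding set, 0.852% of the protein-coding set and 0.571% of the others passed. Among the 100 strongest peaks of the list by q-value 15 lay in non-coding genes, and among the strongest 1000 there were 142.

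**Figure D1:**
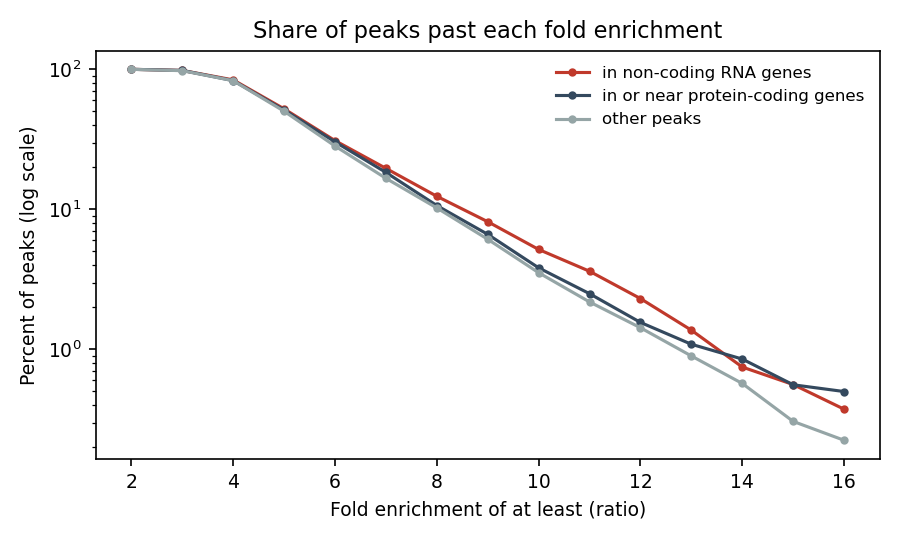
Percent of peaks (vertical axis, log scale) that reach at least the fold enrichment on the horizontal axis, for peaks in non-coding RNA genes, peaks in or within 1 kb of protein-coding genes and other peaks of chromosomes 1 to 22. The curves lie together up to a fold enrichment of 5, the non-coding genes stand highest at 10 (5.17%) and at 12 (2.30% against 1.56% and 1.43%), and the order of the curves differs at 14 and at 16.

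The strongest peak lay in LOC107987037 on chromosome 9, at chr9:124054805-124055156 in hg38, 21.7 kb from LHX2, a LIM homeobox gene. It had 82 tags (exact 95% Poisson interval 65.2 to 102), a fold enrichment of 25.9 and a −log10 q of 90.6, and ranked 7 in the whole list. LOC105370631 on chromosome 14 followed with 74 tags (58.1 to 92.9) and a fold enrichment of 20.5, 33.7 kb from FAM181A. Both genes are named only by number and have no role known to the annotation.

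Of the 10 strongest peaks, 6 lay in genes with such numbered names. LOC105378519, 59.9 kb from WDR11, had 57 tags and a fold enrichment of 18.1. LOC105374591, 77.7 kb from FBXO11, had 56 tags and 16.9. LOC105378861 lay 60.9 kb from F3, which encodes tissue factor, the starter of coagulation, and had 51 tags and 16.03. LOC105375721 lay 124.6 kb from EXT1, a heparan sulfate polymerase, and had 58 tags and 13.4. Its input DNA stood at 1.54 times the genome background, and its fold enrichment was lower than that of peaks with fewer tags.

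The other 4 lay in genes with names of their own. LINC01512 had 55 tags and a fold enrichment of 14.9, 137.9 kb from VEGFA, the vascular growth factor gene. MSANTD2-AS1 had 51 tags and 16.03, LINC02794 had 53 tags and 14.4, and SCIRT had 49 tags and 15.6. The nearest coding genes to these 3 were MSANTD2 at 32.3 kb, SLC5A9 at 107.4 kb and MRPL14 at 78.8 kb. The tag intervals of the 8 peaks after the strongest pair overlapped one another, and each overlapped that of LOC105370631 (58.1 to 92.9). The interval of LOC107987037 (65.2 to 102) overlapped that of LOC105370631 and those of the 8 other than SCIRT (36.25 to 64.78). Only the intervals of LOC107987037 and SCIRT lay apart. Overlap of separate intervals does not show that counts are equal, and the order by tags was not tested.

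Peaks were spread over 1206 of 13011 eligible genes, 9.27%. Of these, 879 had a single peak, 216 had 2 and 111 had 3 or more. Genes with a peak were longer, with a median of 38.9 kb against 11.2 kb for all eligible genes. In 5 classes of equal size by length, from the shortest to the longest, 2.34%, 4.65%, 5.88%, 9.95% and 23.5% of the genes had a peak. Whether a gene held a peak thus went with its length.

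LINC00578 and LOC105370777 held the most, 8 each, over 310.8 kb and 556.3 kb. In LINC00578, whose nearest coding gene for every peak was TBL1XR1, a corepressor subunit, the pileups were 27, 26, 24, 23, 23, 22, 21 and 12 tags. Its fold enrichments ran from 4.06 to 8.75. In LOC105370777 the peaks had 12 to 27 tags and fold enrichments of 3.46 to 6.78, so neither gene held a peak of the strongest group.

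SCIRT, a non-coding RNA gene of 78.9 kb, held 6 peaks, which is 7.602 per 100 kb against 2.57 in LINC00578. MIR3681HG held 6 peaks with fold enrichments of 3.99 to 12.2 over 571.2 kb. ZMIZ1-AS1, on the opposite strand beside ZMIZ1, a coactivator of androgen receptor and SMAD proteins, held 6 with 13 to 35 tags and fold enrichments of 4.37 to 9.58, 41.2 to 116 kb from ZMIZ1. ASMER1 held 5, with 13 to 35 tags and fold enrichments of 4.32 to 11.2, all with NRIP1, a nuclear receptor corepressor, as the nearest coding gene at 49.6 to 72.0 kb.

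ASMER1 was 1 of 12 genes tied at 5 peaks, of which the 5 whose strongest peak had the highest −log10 q are described here. The other 4 were LOC105375070, LOC101929268, LOC101927947 and LOC124901056. LOC105375070 had 15 to 42 tags and fold enrichments of 5.00 to 13.4, and LOC101929268 had 16 to 33 tags and 4.59 to 10.6. LOC101927947 had 13 to 27 tags and 4.37 to 8.75, and LOC124901056 had 16 to 31 tags and 3.396 to 7.41 over 891.2 kb. In each of these 10 genes the strongest peak stood above the median of the whole list and the weakest below it.

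**Figure D2:**
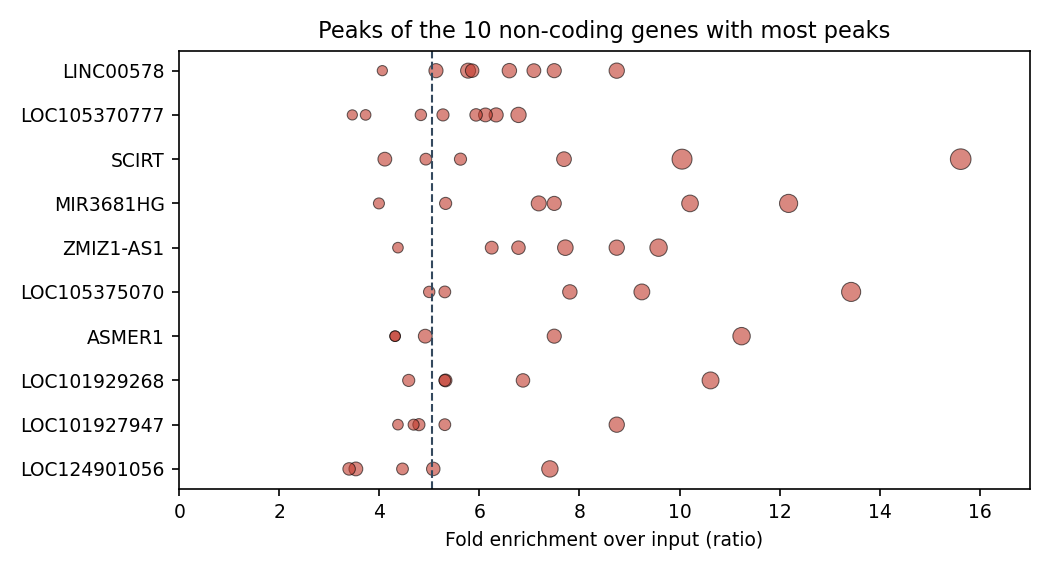
Fold enrichment over input (horizontal axis, ratio) of each peak in the 10 non-coding genes with most peaks (12 genes tied at 5 peaks, and the 5 with the highest −log10 q are shown), 1 dot per peak with the dot's area growing with its pileup; the dashed line is the median of the whole list, 5.06. SCIRT reaches the highest value, 15.6, while the 8 peaks of LOC105370777 stay at or below 6.78.

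LOC105375070, LINC01512 and SCIRT lie along chromosome 6, above VEGFA. LOC105375070 overlaps LINC01512, which ends 168 kb from the lower end of VEGFA, and SCIRT begins at 225.5 kb. Between the lower end of VEGFA and the upper end of SCIRT, a stretch of 304.4 kb, the list held 17 peaks, of which 12 lay in these genes. From VEGFA outward, LOC105375070 had peaks of 24, 29, 15, 16 and 42 tags with fold enrichments of 7.81, 9.25, 5.00, 5.31 and 13.4. LINC01512 had its single peak of 55 tags at 154.2 kb. SCIRT had peaks of 17, 46, 16, 49, 25 and 22 tags with fold enrichments of 5.62, 10.1, 4.93, 15.6, 7.69 and 4.11.

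High and low peaks were mixed along this stretch, and each of the 3 genes held at least 1 peak above 40 tags. The 5 peaks outside the non-coding genes had 13 to 25 tags. At the SCIRT peaks of 46 and 22 tags the input stood at 1.67 and 2.09 times the genome background, and at the other 10 it was at most 1.25 times. The part of the raised input in the fold enrichment of those peaks was not tested. The nearest peak of the 12 to VEGFA lay 81.1 kb from its lower end. Outside the 12, a peak of 15 tags lay inside VEGFA, 4.88 kb from that end. Another of 17 tags lay just above the gene, at 17.54 kb. Which gene any of these peaks acts on was not measured.

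**Figure D3:**
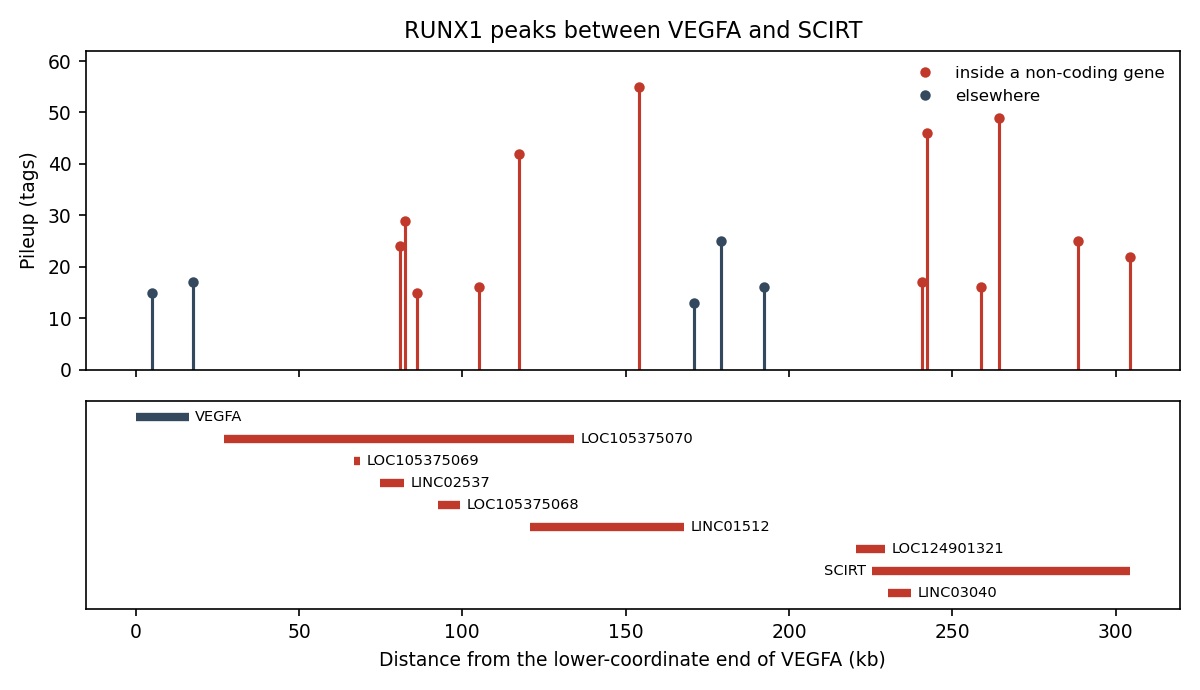
Pileup (tags) of the 17 peaks against distance in kb from the lower-coordinate end of VEGFA on chromosome 6, with the genes of the stretch drawn as bars in the lower panel (blue for VEGFA, red for non-coding genes). The peaks inside non-coding genes reach 55 tags in LINC01512, 49 in SCIRT and 42 in LOC105375070, and those elsewhere stay at or below 25.

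Some of these peaks had close neighbours within the set. With summits no more than 50 kb apart joined, the 1606 formed 1179 chains, of which 879 held a single peak, and 727 (45.3%) lay in chains of 2 or more. The share was not computed for other peaks, so it is not read as a trait of this set. Only 8 chains held 5 or more. Those with most held 6: the 6 of LOC105375070 and LINC01512 above VEGFA, the 6 of SCIRT, and 6 at ZMIZ1-AS1.

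Since the rule left out summits within 1 kb of a protein-coding gene, the distance to the nearest such gene is partly set by it. The distance is given for this set alone, without that of other peaks. Its median was 60.9 kb (quartiles 20.2 and 166), with 213 (13.3%) within 10 kb and 611 (38.0%) beyond 100 kb. The strength of peaks hardly followed this distance. The median fold enrichment was 5.00 for those 1 to 10 kb away, 5.31 for 10 to 50 kb, 4.88 for 50 to 100 kb, 5.24 for 100 to 500 kb and 5.00 for the 79 beyond 500 kb, and the median pileup was 17 or 18 tags throughout.

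The eligible length of non-coding genes covered 350.5 Mb, 12.2% of the length counted, and held 12.1% of the 13321 peaks there. That is 4.58 peaks per Mb (exact 95% Poisson interval 4.36 to 4.81), against 5.49 (5.36 to 5.62) in and within 1 kb of protein-coding genes and 3.82 (3.72 to 3.93) in the remaining length. The 3 intervals did not overlap. The remaining length includes assembly gaps, where no peak can be called, which lowers its density.

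Within non-coding genes, peaks were denser at the ends. Of the 1606, 193 (12.0%, 10.5 to 13.7) lay within 1 kb of an end of their gene, which holds 6.22% of the eligible length. In protein-coding genes it was 472 of 6340 peaks, 7.45% (6.82 to 8.12), in 3.02% of the length. For the genes whose strand the promoter table gives, the first 1 kb held 70 of 1022 peaks, 6.85% (5.46 to 8.57), in 2.89% of the length. The last 1 kb of the same genes held 44, 4.31% (3.22 to 5.73), in 3.37% of the length, which is inside the interval, while at the start side the share of length was below it.

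Both the share of peaks and the share of length at the ends depended on which genes were counted. Without genes named only by a LOC number, 57 of 741 peaks lay within 1 kb of an end, 7.69% (5.98 to 9.84), in 4.25% of the length, and in genes of at least 5 kb it was 8.11% (6.84 to 9.60), in 4.71%. In each case the interval lay above the share of length. Even so, most peaks were inside the gene body. Of the 1100 peaks in genes with a listed start site, 91 (8.27%) lay within 1 kb of it and the median distance was 18.8 kb.

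**Figure D4:**
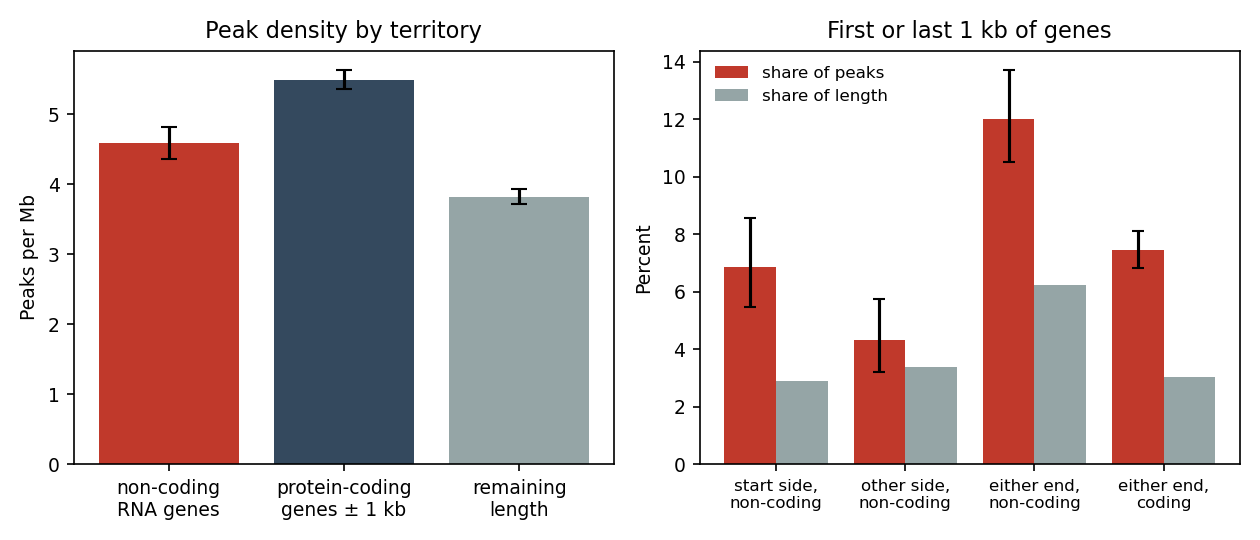
Left, peaks per Mb in the eligible length of non-coding RNA genes, in protein-coding genes with 1 kb either side and in the remaining length (error bars, exact 95% Poisson intervals); right, percent of peaks (red, with 95% Wilson intervals) and of eligible length (grey) in the first or last 1 kb of genes. The non-coding genes stand between the others at 4.58 per Mb, and peaks exceed length at the start side (6.85% against 2.89%) and less so at the other side (4.31% against 3.37%).

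Named by their symbols, the genes fell into classes of like density. Intergenic LINC genes, long RNAs between coding genes, held 373 peaks, 4.45 per Mb (4.01 to 4.93), and had a peak in 255 of 2138 genes, 11.9%. Numbered LOC genes held 918 peaks, 4.41 per Mb (4.13 to 4.70), in 708 of 8780 genes, 8.06%. Antisense genes (-AS) held 156 peaks at 5.29 per Mb (4.49 to 6.18), divergent transcripts (-DT) 73 at 4.73 (3.71 to 5.95), and host genes of small RNAs 35 at 5.11 (3.56 to 7.10). Only the genes with other names, which include many of those studied for a function, had an interval above that of LINC genes, with 112 peaks at 6.65 per Mb (5.48 to 8.003).

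Genes studied in cancer, breast or epithelium were taken as a list of 50, of which 41 were eligible and 9 had a peak, 21.95% against 9.27% of all eligible genes. Of the 12 whose length was 37.7 kb or more 7 had a peak, against 23.5% of all genes of that class. Of the 29 shorter ones 2 did, against 5.71% of all shorter genes. The longer class runs up to 1375 kb, and lengths within each class were not matched. The peaks were of middling height. LINC-PINT, a p53-induced RNA, had 5 peaks of 15 to 27 tags with fold enrichments of 4.95 to 8.43. PVT1, the neighbour of MYC, had 5 of 18 to 28 tags with fold enrichments of 4.20 to 6.30, and at each of them the input stood at 1.42 to 1.67 times the genome background, whose part was not tested.

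DLEU1, a gene of a region often deleted in leukaemia, had 4 peaks of 15 to 18 tags with fold enrichments of 4.26 to 5.93. CYTOR, which is linked to cell migration, had 2 of 24 and 14 tags with 6.65 and 4.69, and its sequence is known to be close to that of MIR4435-2HG, so the placing of reads in either is uncertain. CASC15 had 1 peak of 23 tags and 7.40. MALAT1, an abundant nuclear RNA, had 1 peak of 15 tags and 5.00, 0.079 kb from a listed start site. LINC00511 had 2 peaks of 12 and 11 tags, MIR155HG 1 of 17 tags, and MIR100HG 1 of 14 tags. No summit lay in the eligible length of NEAT1, HOTAIR, MEG3, GAS5, MIR31HG, MIR205HG or NORAD, which says only that no peak passed the limit of the list there.

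Named microRNA host genes numbered 87, of which 71 were eligible and 17 had a peak, 23.9% against 9.27% of all eligible genes. Of those of at least 37.7 kb 11 of 26 had a peak, against 23.5% of all genes of that class, and of the shorter ones 6 of 45, against 5.71%. Lengths within each class were not matched. Beside MIR9-3HG and MIR3681HG, the highest fold enrichments were those of MIR2052HG (31 tags, fold enrichment 8.52), MIR4290HG (23 tags, 7.50) and MIR4527HG, which had 3 peaks of up to 24 tags and up to 7.18. MIR4435-2HG had 4 peaks of 16 to 22 tags with fold enrichments up to 6.56. MIR4713HG had 3 peaks with fold enrichments of 3.75 to 5.59, and 1 peak each was found in MIR4300HG, MIR5689HG, MIR646HG, MIR924HG, MIR550A3HG and MIR99AHG, with 14 to 17 tags. MIR99AHG and MIR100HG, hosts of related let-7 and miR-125 clusters, each had 14 tags and a fold enrichment of 3.21. Input at both stood at 1.67 times the genome background. MIR550A3HG and a peak of LOC105376214 had the same values, so the match is not read as a shared trait.

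Host genes of small nucleolar RNAs, which are short and transcribed in most cells, had a peak in 1 of 24 eligible genes, 4.17%, near the 5.71% of all shorter genes. It was SNHG26, with 19 tags and a fold enrichment of 6.25. The median length of this list was 6.92 kb. Of 12 antisense, divergent, intronic or overlapping genes found at RUNX factors and other epithelial regulators 6 were eligible, and none of them (RUNX2-AS1, SOX9-AS1, ELF3-AS1, GRHL2-DT, ZEB1-AS1 and TGFB2-AS1) had a peak. With 9.27% of all eligible genes holding one, a set of 6 is too small to read anything from this.

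By chromosome the density ranged from 2.31 peaks per Mb of eligible length on chromosome 14 (1.58 to 3.27) and 2.62 on chromosome 4 (2.05 to 3.29) to 7.56 on chromosome 20 (5.53 to 10.1) and 9.54 on chromosome 17 (7.30 to 12.3). On chromosome 17, 8 of the 61 peaks lay in a set of 3 genes whose promoter sequences are copies of one another, GRAPL-AS1, LOC388436 and LOC102724624. Without them the density there was 8.29 per Mb (6.21 to 10.8), so the order was kept. Peaks in non-coding genes were 10.25% of all peaks on chromosome 17 and 10.95% on chromosome 20, against 11.8% of the whole list. On chromosomes 14 and 4 they were 8.84% and 12.07%. The high densities on 17 and 20 thus did not go with a raised share of the peaks of those chromosomes.

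These 3 copies had peaks at like distances from their start sites. The promoter windows of GRAPL-AS1 and LOC388436 were identical over 300 of 300 bases, and that of LOC102724624 matched each over 282 of 282 bases with a shift of 18 bases. The first peak had 48, 48 and 41 tags at 889, 908 and 788 bases, with fold enrichments of 15.3, 13.04 and 11.9. The second had 28, 19 and 20 tags at 1815, 1795 and 1787 bases. A further peak at 3282 bases in LOC388436 had 26 tags and at 3297 bases in LOC102724624 had 23, and GRAPL-AS1 had none listed there. Reads from such copies cannot be placed with certainty, so these peaks are not independent and their pileups are uncertain.

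**Figure D5:**
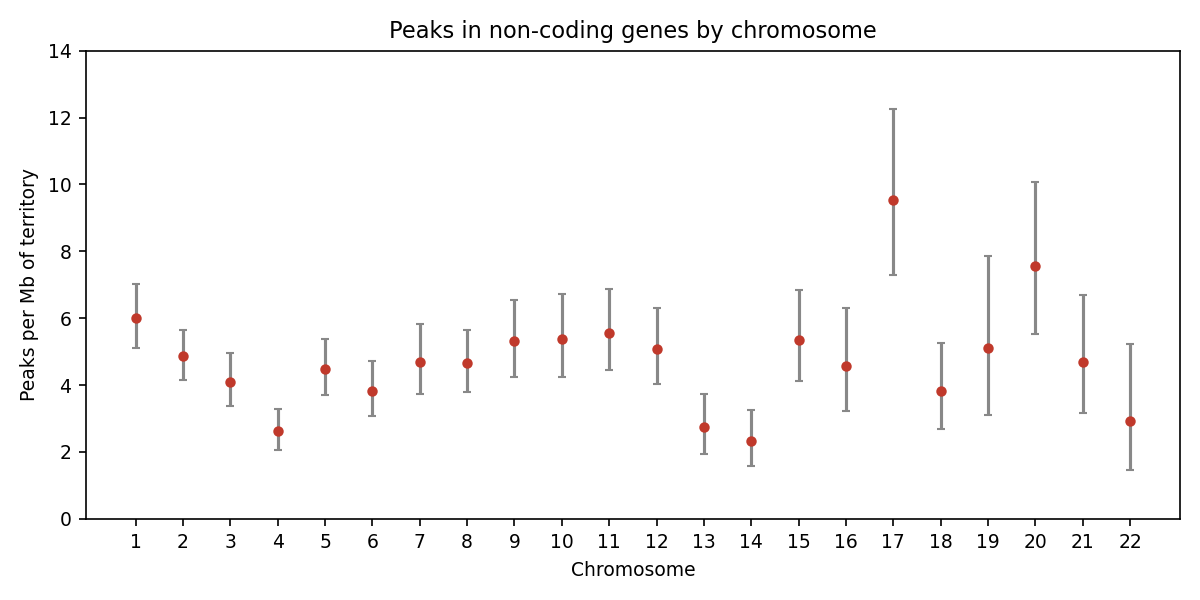
Peaks per Mb of eligible non-coding gene length (vertical axis) on each of the chromosomes 1 to 22 (horizontal axis), with exact 95% Poisson intervals. Chromosomes 17 (9.54) and 20 (7.56) stand highest and chromosomes 14 (2.31) and 4 (2.62) lowest.

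The input DNA bore on some of these values. It stood above 1.5 times the genome background at 348 of the 1606 peaks, 21.7% (19.7 to 23.8), against 22.1% of the whole list. The median fold enrichment of the 348 was 4.10 and median pileup 20 tags, against 5.33 and 17 tags for the rest. Of the 348, 164 lay on chromosomes 1, 5 and 8: 77 of the 156 peaks of chromosome 1, 48 of 118 and 39 of 104. On chromosome 18 it was 13 of 37. The part of copy number in the raised input was not tested, and the level at a single peak can rest on few input tags. The ChIP library kept 80338845 tags and the input 87410774.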

How the data were processed

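ChIPseq was made of 1 anti-RUNX1 sample and 1 input sample, grouped by the antibody in their labels. Reads were aligned with Bowtie2 to hg38 per the submitters' processing notes (version not given in the sources used here). The authors called peaks on the ChIP sample against input with MACS 2.1.2 at a q limit of 0.05. Per the file headers, tags of 54 bp were extended to 74 bp and tags repeated at the same position and strand were reduced to 1, leaving 80338845 of 89501295 ChIP tags and 87410774 of 94686274 input tags. The deposited pileup is a signal, counting extended tags at the summit. Fold enrichment as deposited is a ratio to the local background, with 1 added to both, for which ranges of 1 kb and 10 kb were set. At many peaks this background took the same levels, such as 1.25, 1.67 and 2.09 times the genome background. Those are steps that whole input tags give over the extended tag length, so such levels rest on few tags. Their counting error is not given. The local background was never below the genome background, and at 596 of the 1606 peaks (37.1%) it stood at that floor. There the fold enrichment in effect follows from the pileup alone, and an input of 1 times background is not a measured level. The deposited q values are on the −log10 scale, and every listed peak passed the authors' limit, so weaker sites are not in the list.

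Genes came from the RefSeq table of GRCh38.p14, and a stretch of chromosome 21 from 8.2 to 8.45 Mb, which holds ribosomal DNA copies, was left out. The input level was computed as pileup plus 1, divided by fold enrichment, minus 1, over a genome background of 2.20 tags. Eligible length is the part of non-coding genes further than 1 kb from protein-coding genes. Intervals are Wilson for shares and exact Poisson for counts. No test was made, since there is 1 library of each kind and peaks are not replicates. Named were the 10 strongest peaks, the 10 genes with most peaks and each listed gene with a peak. Other genes, among them the copies on chromosome 17, the promoter examples and the chromosome 6 stretch, were chosen after their values were seen. The peaks and lists were chosen with earlier results of these data known. The rule that takes the peaks was tested on simulated peaks, and the eligible stretches on random positions of chromosome 21. Alternatives changed the limits on q, fold enrichment, input, gene length, distance and gene type, joined close peaks, and left out LOC genes. Python 3.11.15, NumPy 2.4.6, pandas 2.3.3, SciPy 1.17.1 and matplotlib 3.10.9 were used.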

Additional observations from a re-analysis of the deposited data

How the results depend on the processing

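Over 10 alternatives, of which the restriction to the lncRNA type was chosen after seeing the data, 64 values of the 7 results were computed, and 47 stayed within their interval or, for counts, within 1.5 times the value reported. The share of all peaks was 10.3% at 10 kb from protein-coding genes, 12.5% when peaks had only to lie outside them, 11.2% with genes of at least 5 kb and 5.45% without LOC genes. Without LOC genes there were 741 peaks in 498 genes, at 4.86 per Mb. At a fold enrichment of at least 5 there were 838 peaks in 717 genes, at 2.39 per Mb. The density was 4.30 per Mb with peaks within 1 kb joined and 3.59 with the input at most 1.5 times background, by construction since fewer peaks were counted. That last limit raised the median fold enrichment to 5.33 and the percent of peaks at 5 or more to 58.8%, and input enters the fold enrichment itself. The percent of peaks within 1 kb of a gene end was 14.8% when peaks had only to lie outside protein-coding genes. It was 8.11% with genes of at least 5 kb and 7.69% without LOC genes. The share of length there was 4.71% and 4.25% in these, against 6.22% in the main setting. The cause of these changes was not tested. No paired analysis was possible because the ChIP and the input were each sequenced from 1 sample only. With 1 ChIP library the spread between cultures is unknown, and no value here can be set against it.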

Other observations

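Grouped by the nearest protein-coding gene, a grouping made after the values were seen, the 1606 peaks pointed to 1046 genes. TBL1XR1 and MYC were nearest to 10 peaks each. Those of TBL1XR1, 247.8 to 634.3 kb away, lay in LINC00578 and LINC02015 and reached 27 tags and a fold enrichment of 8.75. Those of MYC, the cell growth regulator, lay in PVT1, LINC00824, LOC105375754 and LOC124902020, 66.4 to 743.4 kb away, and reached 30 tags and 6.30. AUH, an enzyme of leucine breakdown, was nearest to 7 peaks of up to 35 tags and 9.58, and SLC39A11, a zinc transporter, to 7 of up to 23 tags and 7.50. KLF7, a zinc finger transcription factor, was nearest to 5, the strongest of 50 tags and 10.9 in MYOSLID-AS1 and MYOSLID. Nearness does not show which gene a peak acts on.

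SMILR, a non-coding RNA first studied in smooth muscle cells, held a peak of 54 tags (exact 95% Poisson interval 40.6 to 70.5) and a fold enrichment of 13.7, 346.1 kb from ZHX2. LOC101929750 held one of 61 tags and 11.1, 212.9 kb from HLX, where the input stood at 2.09 times the genome background. LOC124901992, of 21.6 kb, held 5 peaks, 23.2 per 100 kb, with 15 to 31 tags and fold enrichments of 3.38 to 6.91, and the input there stood at 1.41 to 1.73 times the genome background.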
